A study of Mus musculus with 6 samples.

Results

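The *Vmn2r* genes encode the vomeronasal type 2 receptors and were examined as a set of genes with no known role in neural stem cells. Members were the 121 protein-coding genes on chromosomes 1 to 19 of GENCODE M21 whose symbol starts with *Vmn2r*, out of 20807 protein-coding genes on these chromosomes. GENCODE counts *Vmn2r-ps130* and *Vmn2r-ps159* among them, although their symbols mark pseudogenes. Each gene was given a window, its gene body plus 3 kb on each side, and a gene was said to have a peak when a peak overlapped its window by 1 bp or more. Occupancy is the number of bp under peaks per Mb of window.

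ATAC-seq, which reads out open chromatin from the sites where an added transposase can insert, was run on adult neural stem cells (NSC) of the mouse subependymal zone (SEZ), taken at 10 weeks of age. NSC had been grown as neurospheres with EGF and FGF. All 6 libraries came from *Srr2*del/del mice, which lack the *Srr2* enhancer of *Sox2* after a CRISPR-Cas9 deletion. No wild-type library was analysed here. Proliferating cultures (PROLIF, replicates 1, 2 and 4) were harvested after 2 days in vitro on Matrigel with FGF. Early differentiating cultures (DIFF, replicates 1, 2 and 4) were taken 1 day after the mitogens were replaced by serum. Nothing in the labels says whether replicates came from separate animals, so p-values measure the spread between these libraries.

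V2R receptors are G protein-coupled receptors of family C with a large extracellular ligand-binding domain, and they detect peptide and protein pheromones. They are made by sensory neurons in the basal layer of the vomeronasal organ, where they couple to Gαo (*Gnao1*) and the ion channel TRPC2. Each neuron uses few of the receptor genes, and the family lies in clusters of recent duplicates. Neither the organ nor its neurons are part of the SEZ.

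Several of the peaks found in all libraries lay in duplicated sequence, so sequences are given first, from the RefSeq copy of GRCm38.p6. Within the introns of *Vmn2r20*, *Vmn2r21* and *Vmn2r22*, neighbours on chromosome 6, the peaks sat on copies of 1 element. The windows of 121 bases below are centred on the *Vmn2r20* summit and on the matching bases of the copies, all read on the strand of the gene or on the matching strand. Capitals mark bases that differ from *Vmn2r20* or are inserted. The *Vmn2r20*, *Vmn2r21* and *Vmn2r22* windows lie on the minus strand at chr6:123415339-123415459, chr6:123530684-123530804 and chr6:123647866-123647986. The closed copy (plus strand, chr12:21825181-21825301) had no peak in any library but only 1.58% of its 32-base words occurred once on these chromosomes, and the open copy (plus strand, chr7:104711979-104712101) had a peak in all 6.
Vmn2r20: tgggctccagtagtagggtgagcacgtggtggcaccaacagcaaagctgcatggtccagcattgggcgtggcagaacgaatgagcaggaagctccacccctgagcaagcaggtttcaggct
Vmn2r21: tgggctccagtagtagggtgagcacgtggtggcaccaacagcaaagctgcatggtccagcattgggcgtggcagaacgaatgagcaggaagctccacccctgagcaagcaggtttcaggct
Vmn2r22: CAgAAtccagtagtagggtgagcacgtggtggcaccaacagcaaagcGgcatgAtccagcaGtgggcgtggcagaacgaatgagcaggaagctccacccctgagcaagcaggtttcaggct
closed copy: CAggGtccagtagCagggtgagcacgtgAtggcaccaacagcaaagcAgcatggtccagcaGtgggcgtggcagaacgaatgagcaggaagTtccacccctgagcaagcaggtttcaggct
open copy: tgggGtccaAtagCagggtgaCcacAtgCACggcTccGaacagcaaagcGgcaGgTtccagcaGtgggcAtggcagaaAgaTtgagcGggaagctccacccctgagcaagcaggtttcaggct
The *Vmn2r21* window was identical to that of *Vmn2r20* at 121 of 121 bases, and the *Vmn2r22* window at 114. The closed copy matched at 113 bases, against 105 for the longer open copy of 123 bases.

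A second element lay past the end of *Vmn2r8* and in the untranslated part of an exon of *Vmn2r9* in GENCODE. These genes are neighbours on chromosome 5. Capitals in the copies mark bases that differ from the *Vmn2r8* window (minus strand, chr5:108790504-108790624). Copies A, B and C lie on the minus strand at chr5:108866878-108866998, chr5:109032692-109032812 and chr5:109072145-109072265, and copy D on the plus strand at chr9:124456745-124456865.
Vmn2r8: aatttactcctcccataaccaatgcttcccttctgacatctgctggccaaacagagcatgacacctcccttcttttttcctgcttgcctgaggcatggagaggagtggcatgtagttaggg
copy A: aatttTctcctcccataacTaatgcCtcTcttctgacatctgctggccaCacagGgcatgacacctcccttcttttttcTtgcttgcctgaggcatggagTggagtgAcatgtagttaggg
copy B: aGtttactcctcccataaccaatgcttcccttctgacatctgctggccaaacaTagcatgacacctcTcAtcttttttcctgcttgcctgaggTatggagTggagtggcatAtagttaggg
copy C: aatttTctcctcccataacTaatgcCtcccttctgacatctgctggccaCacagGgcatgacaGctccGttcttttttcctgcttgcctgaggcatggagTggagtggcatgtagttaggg
copy D: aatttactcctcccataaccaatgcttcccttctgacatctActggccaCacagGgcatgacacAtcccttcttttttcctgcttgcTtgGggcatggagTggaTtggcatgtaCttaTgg
The *Vmn2r9* window, which is not printed because it is untranslated exon, matched *Vmn2r8* at 116 of 121 bases. Copies A to D matched at 112, 114, 113 and 111 bases.

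Each state had 1 region of its own, and *Vmn2r7* had 3 regions in all libraries. These lay in introns of its GENCODE model, and the one nearest its GENCODE start is shown. The *Vmn2r24* window lies on the plus strand at chr6:123793867-123793987, and those of *Vmn2r85* and *Vmn2r7* lie on the minus strand at chr10:130420126-130420246 and chr3:64842425-64842545.
Vmn2r24: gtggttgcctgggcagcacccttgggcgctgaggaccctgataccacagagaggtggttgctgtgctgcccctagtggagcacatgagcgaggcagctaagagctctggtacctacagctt
Vmn2r85: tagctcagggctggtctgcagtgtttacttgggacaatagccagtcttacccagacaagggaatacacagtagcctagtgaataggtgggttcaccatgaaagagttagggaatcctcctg
Vmn2r7: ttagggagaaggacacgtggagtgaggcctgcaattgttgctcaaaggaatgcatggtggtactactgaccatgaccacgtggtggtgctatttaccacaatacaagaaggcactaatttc
These windows are not compared with a copy, and none of their bases is in capitals.

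The lists held between 60006 (PROLIF replicate 4) and 88039 peaks (DIFF replicate 4). Read totals were not used here, and the background pileup of each library, solved from the peak statistics, stood for its depth. It was 2.85 to 3.63 reads in the 5 other libraries and 6.01 in DIFF replicate 4, and the part of this difference in the counts of that library was not tested. Promoters of the NSC markers *Nes*, *Sox2*, *Vim*, *Fabp7*, *Slc1a3*, *Notch1* and *Pax6* had a peak within 3 kb of a start site in all 6 libraries. Where no peak was called, the signal lay below the threshold of the caller, which does not measure how closed the chromatin was.

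*Vmn2r* windows held very few peaks in every library. There were 21, 25 and 20 peaks in PROLIF replicates 1, 2 and 4, and 21, 18 and 37 in DIFF replicates 1, 2 and 4. DIFF replicate 4 stood highest, and the other 5 libraries lay within 18 to 25 peaks. These peaks made up 0.0254% to 0.0420% of a list. Occupancy was 2210, 2459 and 1957 bp per Mb in PROLIF and 1953, 1825 and 2565 bp per Mb in DIFF. The states overlapped, with the highest and the lowest library both in DIFF.

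Against the remaining protein-coding genes, *Vmn2r* occupancy was 9.33-fold lower. The other genes held 21950, 19766 and 16654 bp per Mb in PROLIF and 19434, 20264 and 22550 bp per Mb in DIFF. The log2 ratio was -3.22 ± 0.17 (SD, n = 6 libraries), below 0 in 6 of 6 (two-sided exact permutation test by sign flips, adjusted p = 0.046875 over 3 comparisons, from the smallest p that 6 libraries allow). Counted per Mb of unique sequence, with all bp under peaks kept, the fold was 5.95 (adjusted p = 0.046875, same exact test). Peaks in repeated sequence stayed in this count, so it is not the occupancy of unique sequence alone. Under 6 alternatives the log2 ratio lay between -3.43 and -2.80, but the adjusted p was 0.09375 (exact permutation). The adjustment over 3 comparisons makes this p depend on the other comparisons too. It does not alone mark a weaker ratio.

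The depletion was shared with the other chemoreceptor families. *Vmn1r* genes, the vomeronasal type 1 receptors, held 2320, 1744 and 2155 bp per Mb in PROLIF and 2020, 2233 and 2747 bp per Mb in DIFF. The log2 ratio of *Vmn2r* to *Vmn1r* was -0.03 ± 0.27 (SD, n = 6), with an adjusted p of 0.8125 (same exact permutation test), and it ran from -0.29 to 0.50 over the libraries. *Olfr* genes, the main olfactory receptors, held 2757, 2832 and 2239 bp per Mb in PROLIF and 2093, 1848 and 2837 bp per Mb in DIFF. *Vmn2r* windows were 1.12-fold below *Olfr* windows, a log2 ratio of -0.16 ± 0.10 (SD, n = 6, below 0 in 6 of 6, adjusted p = 0.046875, same exact permutation test). This order turned per Mb of unique 32-base words (0.37, adjusted p = 0.046875, exact permutation) and with RefSeq gene models (0.45, adjusted p = 0.046875, exact permutation), where *Vmn2r* lay above *Olfr*. It also turned per Mb of unmasked bases (0.12) and among the strongest 20000 peaks (0.32), each with an adjusted p of 0.09375 (exact permutation). The scales of unique words and unmasked bases cut the window length alone, and all bp under peaks were kept. Among these are the peaks of *Vmn2r20* and *Vmn2r21* in regions with 0% unique words and 85.5% masking. The order within unique or unmasked sequence alone was not tested.

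**Figure D1:**
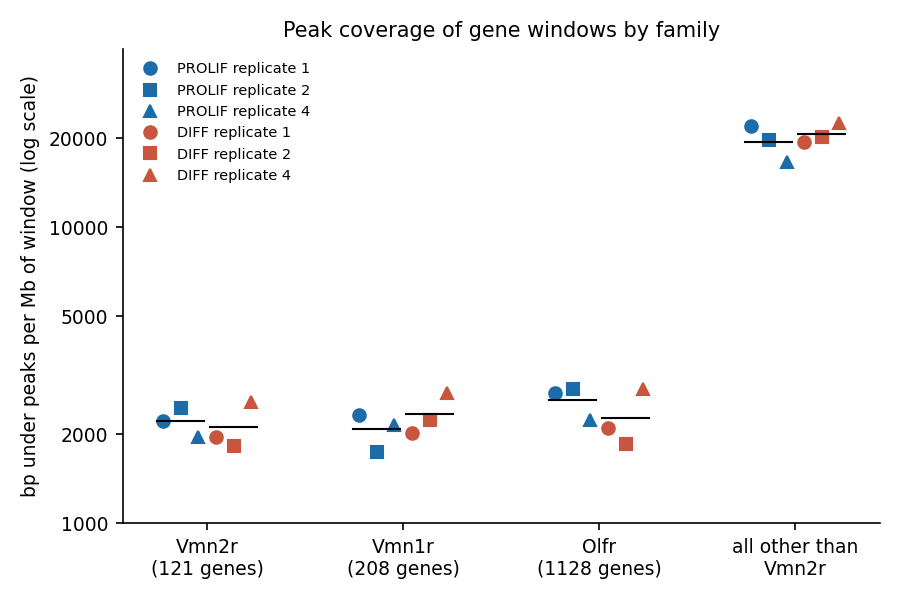
Occupancy in bp under peaks per Mb of gene window (log axis) for *Vmn2r*, *Vmn1r*, *Olfr* and all protein-coding genes other than *Vmn2r*; points are the 6 libraries and black lines the mean of each state. The 3 receptor families lie between 1744 and 2837 bp per Mb, below the other genes at 16654 to 22550 bp per Mb.

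Counted by gene, 95 of 121 *Vmn2r* genes (78.5%) had no peak in any library, against 17.7% of all protein-coding genes. A peak in all 6 libraries was present at 9 genes (7.44%), against 72.1% of all protein-coding genes. *Vmn2r20* and *Vmn2r21* are counted separately here, although reads in their shared element cannot be told apart. A peak in 1 library was found at 9 genes (*Vmn2r18*, *Vmn2r26*, *Vmn2r37*, *Vmn2r54*, *Vmn2r55*, *Vmn2r77*, *Vmn2r102*, *Vmn2r111* and *Vmn2r115*) and in 2 libraries at *Vmn2r30* and *Vmn2r114*. *Vmn2r2*, *Vmn2r24*, *Vmn2r27* and *Vmn2r117* had a peak in 3 libraries, *Vmn2r85* in 4 and *Vmn2r76* in 5. For comparison, 184 of 208 *Vmn1r* genes and 947 of 1128 *Olfr* genes had no peak in any library, as did 98 of 113 *Vmn2r* pseudogenes.

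Start sites held still fewer peaks. No *Vmn2r* gene had a peak within 1 kb of its gene start in all 6 libraries, and 1 had one in any library (*Vmn2r117*, in PROLIF replicate 2 alone, at 780 bp). Over all protein-coding genes 57.5% had a start peak in all 6 libraries and 65.8% in any. Within 3 kb the count was 4 *Vmn2r* genes in all 6 libraries (3.31%, against 61.8%), and these were *Vmn2r7*, *Vmn2r20*, *Vmn2r21* and *Vmn2r22*, each with a peak after its start. With the RefSeq gene model, *Vmn2r7* had no peak in any library.

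**Figure D2:**
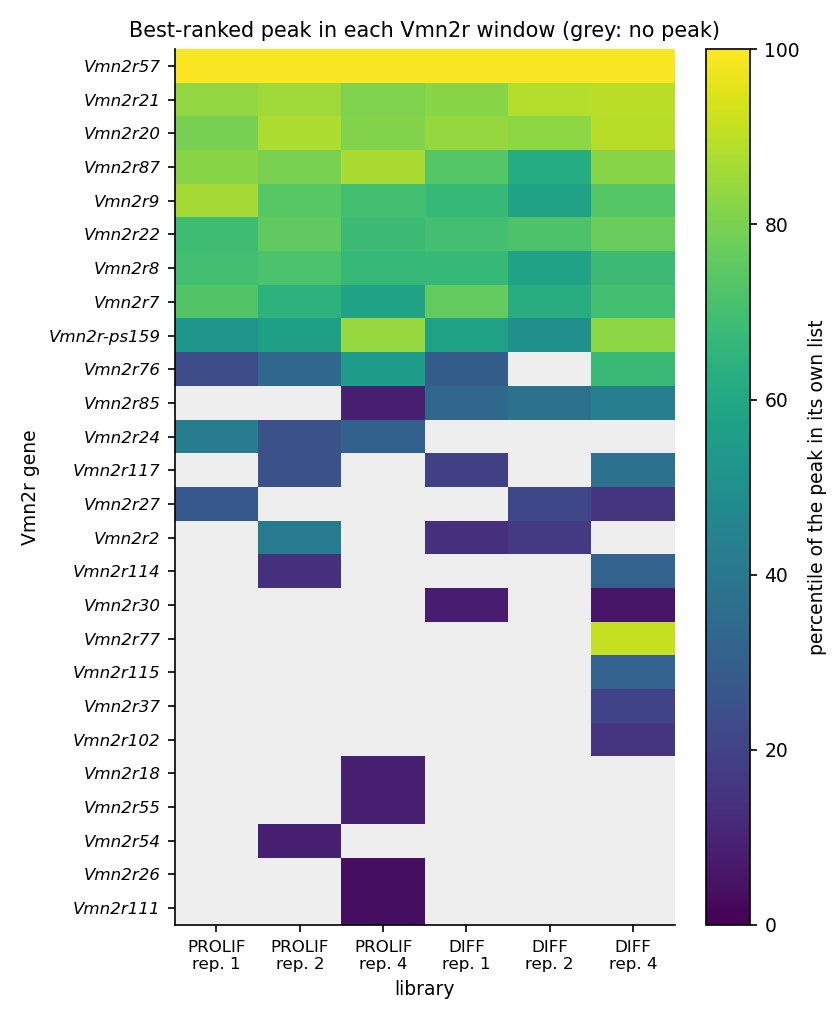
Percentile of the best-ranked peak of each *Vmn2r* window (colour) by library for the genes with a peak in any library; grey cells have no peak. The upper 9 rows are filled in all 6 columns, while most cells of the lower rows are grey.

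Much of the family is duplicated, and the part of mapping in missing peaks was not tested. Of the 32-base words in the *Vmn2r* windows, 57.3% occurred once in the assembly, against 64.1% in *Vmn1r*, 83.2% in *Olfr* and 89.8% in windows of other genes. Repeat masking covered 45.5% of the *Vmn2r* windows and 27.2% of the others. Genes without a peak were found at high uniqueness too. Of the 41 genes with at least 75% unique words, 5 had a peak in any library and 0 in all 6. The 38 genes with less than 50% unique words included 9 with any peak and 4 with a peak in all 6. Genes with no peak had a median of 66.2% unique words and the 9 genes open in all libraries 55.7%. The mapping quality filter of the authors is not given in the sources used here.

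The 121 genes formed 17 clusters when neighbours less than 1 Mb apart were joined. In 5 clusters (*Vmn2r28*, *Vmn2r80* to *Vmn2r83*, *Vmn2r88* and *Vmn2r89*, *Vmn2r118*, and *Vmn2r120*) none of the 9 genes had a peak in any library. The cluster of *Vmn2r90* to *Vmn2r110* on chromosome 17, with 22 genes and 74.7% unique words, had 1 peak in all, of 99 bp in DIFF replicate 4 at *Vmn2r102*. The cluster of *Vmn2r29* to *Vmn2r52* on chromosome 7 had peaks at 2 of 24 genes, in DIFF replicates 1 and 4 only, but 12.4% of its words were unique. *Vmn2r65* to *Vmn2r79*, with 78.6% unique words, held 240, 274 and 543 bp per Mb in PROLIF and 185, 0 and 847 bp per Mb in DIFF. These 3 large clusters thus held few peaks at high and at low uniqueness.

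In 6 clusters a peak was present in every library. Among those of more than 1 gene, the highest median occupancy was in *Vmn2r84* to *Vmn2r87* on chromosome 10 (median 9315 bp per Mb) and *Vmn2r19* to *Vmn2r27* on chromosome 6 (8718 bp per Mb), followed by *Vmn2r1* to *Vmn2r7* on chromosome 3 (3410 bp per Mb) and *Vmn2r57* to *Vmn2r63* on chromosome 7 (2590 bp per Mb). The chromosome 6 cluster held 11938, 10488 and 7572 bp per Mb in PROLIF and 7633, 8082 and 9354 bp per Mb in DIFF, and the states overlapped. In *Vmn2r84* to *Vmn2r87* PROLIF libraries held 7803, 8206 and 8629 bp per Mb and DIFF libraries 11777, 10002 and 12551 bp per Mb. In *Vmn2r8* to *Vmn2r17* on chromosome 5 they held 3052, 3154 and 1983 bp per Mb in PROLIF and 1522, 949 and 1484 bp per Mb in DIFF. Peaks were at 2 genes in each of these last 2 clusters. Single clusters were not tested between the states, since 3 against 3 libraries cannot give p below 0.1, and no share over other gene clusters was computed.

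**Figure D3:**
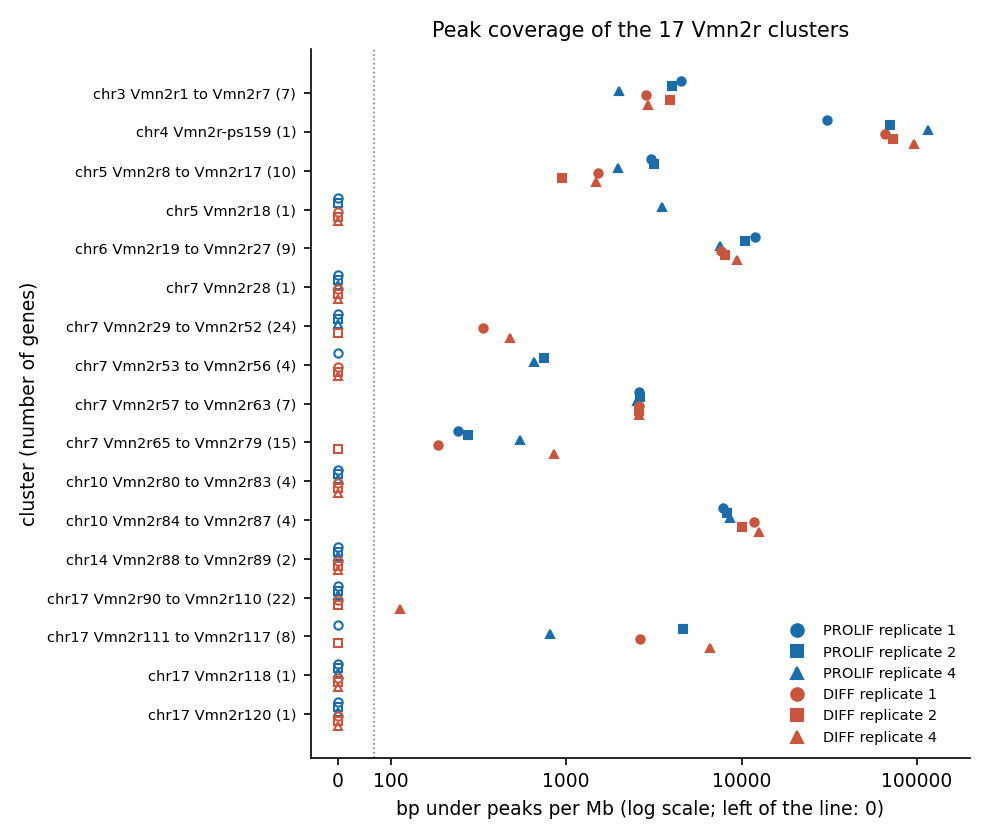
Occupancy of the 17 *Vmn2r* clusters in bp under peaks per Mb of window (log axis, with libraries at 0 left of the dotted line); each point is a library and the number of genes is in parentheses. Points of all 6 libraries lie to the right of the line in 6 clusters, and 5 clusters have all libraries at 0.

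Between the states, the family as a whole did not differ beyond the spread of the libraries. Occupancy was 2209 ± 251 bp per Mb in PROLIF and 2114 ± 396 bp per Mb in DIFF (SD, n = 3 each, difference -94.4, two-sided exact permutation p = 0.7). Peaks per Mb differed by 0.759 (exact permutation p = 0.9) and genes with a peak by 0.667 (exact permutation p = 1), both with DIFF minus PROLIF as the direction. Without DIFF replicate 4, the deepest library, these differences became -0.569 and -1.33. The difference in genes also turned without PROLIF replicate 1 (-0.5) and for the gene body alone (-0.333). Both also turned with lists of equal length, so neither sign was stable. Relative to the other genes the log2 ratio was lower in DIFF by 0.17 (a difference of -0.17, exact permutation p = 0.2). With 3 libraries a state, the smallest p is 0.1.

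Of the 54 merged *Vmn2r* regions, 31 (57.4%) were found in 1 library, against 29.7% of all autosomal regions, and 12 of these 31 were in DIFF replicate 4. Regions found in all 6 libraries numbered 11 (20.4%, against 33.5%). They count the *Vmn2r20* and *Vmn2r21* regions separately, although their reads cannot be told apart.

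The element of *Vmn2r20*, *Vmn2r21* and *Vmn2r22* gave broad intronic peaks, 656 to 1197 bp wide. At *Vmn2r20* the fold enrichment over local background was 10.8, 11.9 and 10.6 in PROLIF and 10.97, 11.4 and 11.2 in DIFF. At *Vmn2r21* it was 12.1, 10.8 and 10.9 in PROLIF and 9.93, 14.2 and 12.003 in DIFF. At *Vmn2r22* it was 8.16, 9.11 and 8.06 in PROLIF and 7.44, 9.35 and 8.46 in DIFF. The states overlapped at all 3 genes. Percentiles within a list were 79.4 to 89.1, 80.5 to 89.7 and 68.4 to 77.1, so the peaks stood in the upper part of every list.

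Summits lay 2660 to 3090 bp after the gene start in an intron, and the starts themselves had no peak. Over 1223 bp the *Vmn2r20* region was 100% identical to the *Vmn2r21* copy, and 0% of its 32-base words were unique, so reads from these 2 genes cannot be told apart. The *Vmn2r22* copy was 95.6% identical, with 32.1% unique words. Repeat masking covered 85.5% of the *Vmn2r20* and *Vmn2r21* regions and 87.5% of the *Vmn2r22* region. The element is a genomic repeat: 356 other copies covered at least 80% of the *Vmn2r20* region, and 324 of them (91.0%) had no peak in any library. Among the 27 copies of at least 90% identity, 5 had a peak in all 6 libraries, *Vmn2r21* and *Vmn2r22* included, and 20 had none. The median share of unique words (counted here within chromosomes 1 to 19) was 29.4% in these open copies and 27.5% in the closed ones. Over all 356 copies the medians were 29.4% in the open and 11.5% in the closed copies, so closed copies were less unique on the whole, and the part of mapping in their missing peaks was not tested. The 3 closest closed copies, on chromosome 12, were 93.0% to 93.3% identical and had 1.58%, 23.6% and 7.49% unique words, and a closed copy on chromosome 1 had 53.1%. The open copies on chromosomes 7 and 17 were 91.7% and 91.2% identical. Another open copy, on chromosome 13, was 90.3% identical and weaker. Its best percentiles were 60.5, 59.1 and 8.80 in PROLIF replicates 1, 2 and 4. In DIFF replicates 1, 2 and 4 they were 2.96, 30.6 and 2.32. Its peaks in PROLIF replicate 4 and DIFF replicate 4 did not overlap each other.

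**Figure D4:**
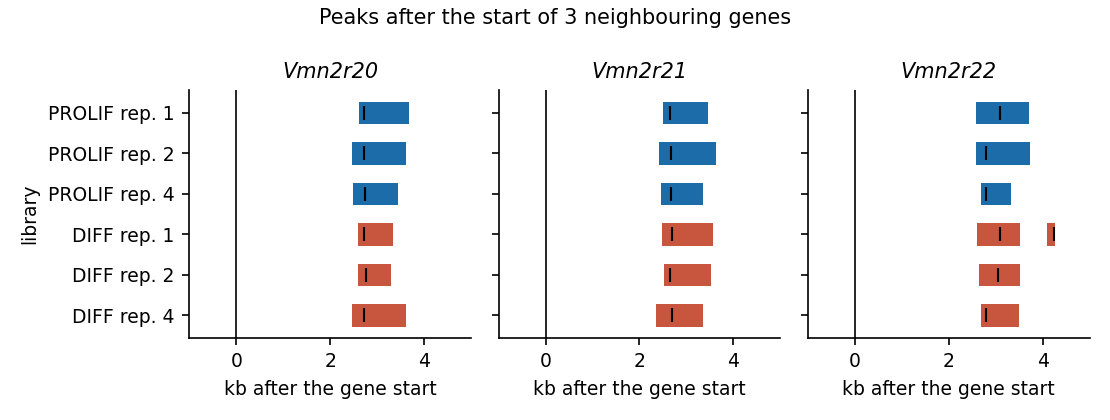
Peaks of each library (bars, from edge to edge, in kb after the gene start) and their summits (black ticks) at *Vmn2r20*, *Vmn2r21* and *Vmn2r22*. In all 6 libraries a peak begins more than 2 kb after the start, and no peak overlaps the start.

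*Vmn2r20* had a further peak in 4 libraries deep in the gene, at folds of 2.85 to 4.16 and with 76.9% unique words. Further into *Vmn2r21* and *Vmn2r22*, 2 regions with 0% unique words and a median of 2 copies of each word had peaks in 3 and 4 libraries, with folds of 2.42 to 7.11 and 3.03 to 5.84, next to the snoRNA genes *Gm25891* and *Gm25065*. *Vmn2r27*, in the same cluster, had a peak in 3 libraries on a fully masked repeat with a median of 481 copies of each word. *Vmn2r19*, *Vmn2r23* and *Vmn2r25* had no peak in any library.

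The *Vmn2r8* and *Vmn2r9* element was narrower, and every copy of it had a peak in at least 3 libraries. At *Vmn2r8* the fold was 9.57, 9.38 and 7.80 in PROLIF and 7.12, 7.08 and 6.70 in DIFF. At *Vmn2r9* it was 14.8, 9.90 and 8.32 in PROLIF and 7.12, 7.08 and 7.70 in DIFF. Both genes had higher folds in every PROLIF library than in any DIFF library. Of the 11 *Vmn2r* regions in all 6 libraries, 3 (*Vmn2r8*, *Vmn2r9* and *Vmn2r87*) were ordered in this way and 1 (*Vmn2r57*) in the opposite way, against 14.3% and 7.28% of the 39088 autosomal regions in all 6 libraries, and these few regions are not set apart from that background by a test. Percentiles overlapped between the states at both genes (57.6 to 71.9 at *Vmn2r8* and 57.6 to 86.4 at *Vmn2r9*).

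The bp under peaks in the *Vmn2r9* window also ran without overlap, at 445, 576 and 419 bp in PROLIF and 305, 133 and 162 bp in DIFF. It was the only one of the 9 genes open in all libraries to do so; 5.03% of all genes open in all libraries were higher in PROLIF in this way and 14.0% in DIFF. The *Vmn2r8* peak lies outside its gene, in an intron of *Tmed11*, and the *Vmn2r9* peak lies 16244 to 16293 bp after the start. In RefSeq, *Vmn2r9* is shorter, this peak lies outside its window, and the gene had a peak in 1 library.

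All 5 other copies of at least 80% of the *Vmn2r8* region had peaks, 3 of them in 6 libraries, 1 in 5 and 1 (copy C) in the 3 PROLIF libraries alone. They were 89.3% to 93.6% identical to it, and 67.4% to 86.3% of their words were unique. Copies B and C lie more than 3 kb from any annotated gene. Copy C was the weakest, at percentiles 23.0, 51.8 and 14.6. The copies thus differed in rank within a list. Sharing of reads between copies was not tested.

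**Figure D5:**
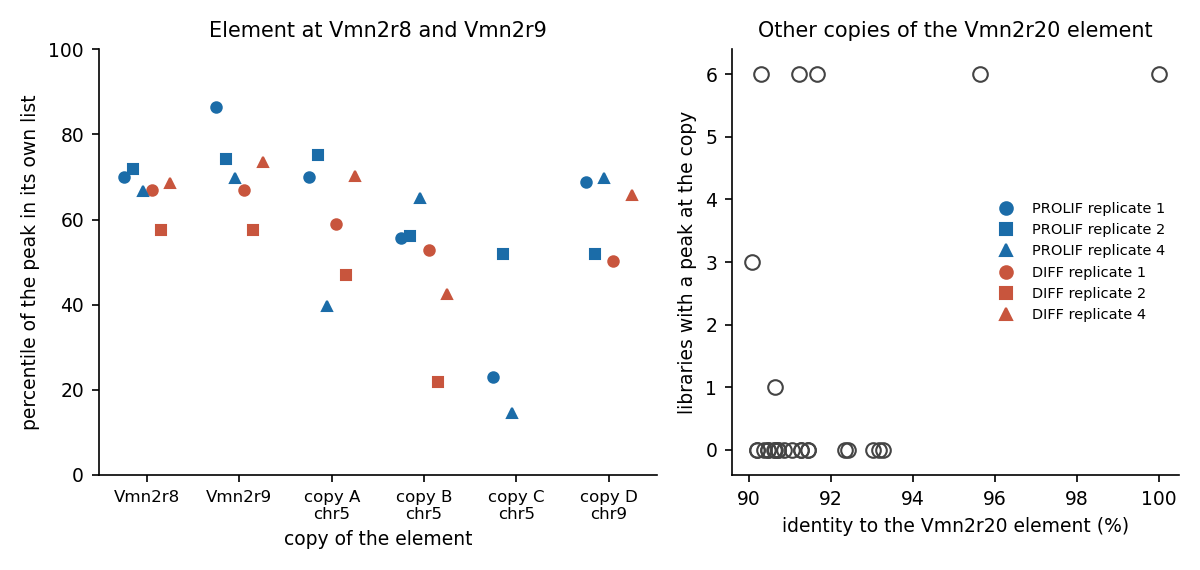
Left, percentile of the peak in its own list at the 6 copies of the *Vmn2r8* and *Vmn2r9* element (points are libraries, symbols as in the key). Right, number of libraries with a peak against percent identity for the 27 other copies of the *Vmn2r20* element with at least 90% identity, where 5 copies stand at 6 libraries and 20 at 0.

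*Vmn2r7* had 3 regions in all 6 libraries, with 100%, 99.1% and 88.4% unique words, and each lay in an intron. A further peak of the gene, in DIFF replicate 4 alone, was on a fully masked repeat with 0% unique words. The one nearest the start (2278 to 2282 bp after it) had folds of 10.3, 7.87 and 4.42 in PROLIF and 7.55, 7.33 and 6.99 in DIFF. PROLIF replicate 4 was lowest and the states overlapped. The middle region had folds of 10.3, 5.33 and 6.50 in PROLIF and 4.96, 7.83 and 4.56 in DIFF. The farthest had folds of 8.31, 5.08 and 5.98 in PROLIF and 9.06, 5.56 and 6.42 in DIFF. A further region was found in 5 libraries, all but PROLIF replicate 4. The regions also lie in introns of *Gm26939*, a processed transcript on the same strand, and the GENCODE model of *Vmn2r7* is long. In RefSeq, *Vmn2r7* is shorter and these regions lie outside its window. With that model the gene had no peak in any library.

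The other exceptions lay outside the receptor genes. At *Vmn2r57* the peak was at the start of the neighbouring gene *AI987944* (33 bp away), with folds of 16.9, 15.4 and 15.7 in PROLIF and 17.3, 19.6 and 18.9 in DIFF, and percentiles of 99.2 to 99.6. In every library it was the best-ranked peak of the *Vmn2r* windows. At *Vmn2r87* the peak was in the processed pseudogene *Gm18755*, with folds of 11.8, 9.75 and 11.3 in PROLIF and 8.42, 7.82 and 9.19 in DIFF. All 3 PROLIF folds were above the DIFF folds, while percentiles overlapped (79.7 to 87.4 and 61.96 to 82.2).

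At *Vmn2r-ps159* the peak lay past the gene and was 440 to 2920 bp wide by library. In the merged region the folds were 5.57, 5.53 and 8.53 in PROLIF and 5.42, 5.93 and 8.46 in DIFF. The region ran past the 3 kb window, inside which the best fold of DIFF replicate 2 was 5.69. PROLIF replicate 2 and DIFF replicate 4 had 2 peaks in the window. The replicates numbered 4 were highest in both states. The gene is a cluster on its own, with a window of 0.0144 Mb and a median of 71543 bp per Mb, the highest of the 17 clusters.

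*Vmn2r76*, in 5 of 6 libraries, had a unique region (100% unique words) in the untranslated part of an exon, with folds of 4.03, 4.57 and 6.24 in PROLIF and 3.88 and 6.56 in DIFF replicates 1 and 4. DIFF replicate 2 had no peak there. The RefSeq model of *Vmn2r76* is shorter, the region lies outside its window, and with that model the gene had no peak in any library. *Vmn2r77* had a single narrow peak of 70 bp in DIFF replicate 4, at a fold of 15.7 and percentile 91.2, and no peak in the other 5 libraries.

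One gene passed the rule for a state. *Vmn2r24* had a peak in all PROLIF and no DIFF libraries, 1 of 121 genes against 0.197% of all genes, and 0 of 121 showed the reverse, against 0.389%. By region there was 1 of 54 in each direction (1.85% each, against 1.77% for PROLIF and 3.52% for DIFF over all regions), shares near or below the background. The *Vmn2r24* peak lies in an intron 15023 to 15099 bp after the start, in fully unique sequence, with folds of 5.29, 4.06 and 4.42 and percentiles of 41.9, 24.96 and 31.05 in PROLIF replicates 1, 2 and 4. The pileup was 20, 15 and 16 reads, and the peaks stood in the lower part of each list.

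The DIFF region was in an intron of *Vmn2r85*, with folds of 4.10, 5.05 and 3.99 and percentiles of 33.7, 37.8 and 42.6 in DIFF replicates 1, 2 and 4. It was 92.4% masked with 33.3% unique words. Of 290 other copies, 257 (88.6%) had no peak, 7 had a peak in all 3 DIFF and no PROLIF libraries and 0 the reverse. *Vmn2r85* also had a peak in PROLIF replicate 4 elsewhere in its window, so the gene itself did not count for DIFF.

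Both strands within 100 bp of a summit were read for motif letters at the 15 regions found in at least 5 libraries or in 1 state alone. The letters of CTCF (CCA, any 2 bases, AG, any 2 bases, GGC), an insulator protein, were found at 2 of the 15 regions, *Vmn2r22* and *Vmn2r76*, and in 8.10% of all autosomal regions. Of the *Vmn2r20* copies printed, the closed copy and the open copy held them as well, while *Vmn2r20* and *Vmn2r21* did not. No region held the letters of EBF (TCCC, any 2 bases, GGGA), a factor of olfactory neurons, AP-1 (TGANTCA) or NFI (TTGGC, any 5 bases, GCCAA), which were in 0.646%, 8.23% and 0.0976% of all regions. SOX letters (ACAANG) were at 5 of 15 regions, against 39.2% of all. The E-boxes CAGCTG and CAGATG, bound by factors such as NEUROG, were at 3 and 4 of 15, against 19.6% and 17.3%. CAGATG was at both *Vmn2r8* and *Vmn2r9* and in copies A, B and C, and was not in the copy D window. A motif match is a description of sequence only.

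Genes of vomeronasal signalling and related receptors differed by group in their promoter peaks (within 3 kb of a transcript start). Of 7 signalling genes, 5 had a promoter peak in all 6 libraries, where 61.8% of all protein-coding genes had one within 3 kb of the gene start. They included *Gnao1* (percentiles 74.96 to 89.6) and *Gnai2* (93.8 to 97.9), the G protein subunit of the neurons with type 1 receptors. *Trpc2*, the vomeronasal ion channel, had no peak in its window in any library, and *Omp*, a marker of mature olfactory neurons, had a promoter peak in 2. Of 9 class Ib MHC genes, which are coexpressed with V2R receptors, 8 had no promoter peak in any library, the exception being *H2-M1* in 1 library. Of 5 family C relatives, the taste receptor gene *Tas1r1* and *Gprc6a* had a promoter peak in all 6 and *Casr* and *Tas1r2* in none. Of the transcriptional regulators, *Bcl11b*, *Meis2*, *Neurog1*, *Ebf1*, *Lhx2* and *Atf5* had one in all 6 libraries, and *Tfap2e*, which marks the V2R lineage, had one in 3.

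Markers of other cells were mixed. Promoter peaks in all 6 libraries were found at 1 of 4 microglial (*Csf1r*), 0 of 4 endothelial and 1 of 4 vomeronasal or olfactory neuron markers (*Gng8*), and their part in the *Vmn2r* peaks was not tested.

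The list of exceptions depended on the gene models. RefSeq has 122 *Vmn2r* genes placed on these chromosomes (1 on a scaffold was left out), of which 120 share a symbol with a member. The 8 with a peak in every library were *Vmn2r20*, *Vmn2r21*, *Vmn2r22*, *Vmn2r87*, *Vmn2r1*, *Vmn2r2*, *Vmn2r29* and *Vmn2r129*, and the last has the coordinates of *Vmn2r-ps159*. Another 98 had no peak in any library. Thus *Vmn2r20*, *Vmn2r21*, *Vmn2r22*, *Vmn2r87* and the *Vmn2r-ps159* locus had a peak in all libraries with both annotations. Reads in the element shared by *Vmn2r20* and *Vmn2r21* cannot be told apart, so the calls do not show that each is open.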

How the data were processed

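ATAC-seq peaks of 6 libraries were used. The authors trimmed reads (Cutadapt, Trimmomatic), used Bowtie2 for alignment to GRCm38 (mm10) and Picard for duplicates, and ran MACS2 on each library for narrow peaks (no model, FDR of 0.05), with no pooling of replicates. Tool versions and the mapping quality filter are not given in the sources used here. For each peak the deposited lists hold a score (10 times the −log10 q), a fold enrichment (a ratio over local background), and −log10 p and −log10 q. Peaks are calls, and read counts were not used here.

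Peaks were intersected with windows of GENCODE M21 genes (gene body plus 3 kb, 1 bp overlap), and overlapping peaks of the libraries were merged into regions. The percentile of a peak is the rank of its −log10 p in its own list. Pileups were solved from fold and p, which succeeded within 0.001 for 135 of 136 peaks. The states were compared by two-sided exact permutation, and families by exact sign flips over 6 libraries with Benjamini-Hochberg adjustment over 3 comparisons. Uniqueness is the share of 32-base words found once in the assembly. Copies were found with BLAST+ 2.17.0 (at least 80% of the region aligned, e-value 1e-20, chromosomes 1 to 19). Other software was Biopython 1.88, scipy 1.17.1, numba 0.67.0, pandas 2.3.3, matplotlib 3.10.9, numpy 2.4.6 and Python 3.11.15. Named regions were those found in at least 5 libraries or in 1 state alone, and other named peaks were chosen after their values were seen. The members and lists were chosen with earlier results of these data known. A gene of the marker and regulator lists is not reported here. Scripts were tested on simulated data. Alternatives changed the q threshold, list length, window, overlap, length scale, gene models and libraries. The length scales (unique words or unmasked bases) cut the window length alone, and all bp under peaks were kept.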

Additional observations from a re-analysis of the deposited data

How the results depend on the processing

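Missing peaks at duplicated genes limit every count, since 57.3% of the words in *Vmn2r* windows were unique, and lists of calls hold no signal below the threshold. The log2 ratio to other genes kept its direction in all alternatives run but had an adjusted p of 0.09375 (exact permutation) with q of 0.001 (-3.29), lists of equal length (-3.29), the gene body alone (-3.40), without starts of other genes (-3.38), among the strongest 20000 peaks (-3.43) and per Mb of unmasked bases (-2.80). The ratio to *Olfr* was then -0.14 with q of 0.001, -0.13 with equal lists, -0.14 for the gene body and -0.16 without other starts, and it reversed among the strongest peaks (0.32), with RefSeq models (0.45), per Mb of unmasked bases (0.12) and per Mb of unique words (0.37), the last 3 chosen after seeing the data. The ratio to *Vmn1r*, which passed no test, reversed with equal lists (0.0052), the strongest peaks (0.14), the gene body (0.14), 10 kb flanks (0.0935), without other starts (0.11), with RefSeq models (0.0898), per Mb of unmasked bases (0.13) and per Mb of unique words (0.14). The DIFF minus PROLIF difference reversed for peaks per Mb (-0.455 with equal lists, -0.304 among the strongest) and genes with a peak (-1 with equal lists, -1.33 among the strongest, -0.333 for the gene body). Genes called in all 6 libraries numbered 3 among the strongest and 5 for the gene body. Such regions numbered 3 among the strongest, 7 for the gene body, 18 with 10 kb flanks and 5 where a peak had to cover 50% of the region. Regions of 1 state numbered 1 among the strongest, with 50% cover and without chromosome 10 (added after seeing the data). Through the adjustment over 3 comparisons, the adjusted p of the ratio to other genes also depended on the ratios to *Olfr* and *Vmn1r*. The cause of the other changes was not tested.

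Leaving out 1 library in turn gave differences of -320 to 50.3 bp per Mb (30.6 without PROLIF replicate 2, 50.3 without DIFF replicate 2), -0.569 to 1.59 peaks per Mb and -1.33 to 2.17 genes (-0.5 without PROLIF replicate 1). The relative log2 difference was -0.26 to -0.09, and the ratios were -3.26 to -3.17 to other genes, -0.13 to 0.0277 to *Vmn1r* and -0.19 to -0.13 to *Olfr*, where 5 libraries cannot give an unadjusted p below 0.0625. Same-numbered libraries had deviations correlated at 0.0249 to 0.0351 over 116783 regions, and differently numbered libraries at -0.0273 to -0.0066. Each library thus correlated highest with its own number. The main tests did not pair libraries by number, whereas the replicate block did. The replicate block gave -94.4 bp per Mb (p = 0.75), 0.759 peaks per Mb (p = 1), 0.667 genes (p = 1) and -0.17 for the relative log2 ratio (p = 0.25, the smallest the exact sign flips allow), and changed no call.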
